A study of Mus musculus with 43 samples.

Results

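This report describes the genes of the nuclear RNA polymerase subunits in the cytotoxic mouse T line CTLL-2 as interleukin 2 (IL-2) was returned to starved cells. The members were chosen by name: every gene whose symbol began with Polr1, Polr2 or Polr3 and that had a probe set assigned to that symbol alone. This gave 25 of 18193 genes so measured, namely 5 Polr1, 11 Polr2 and 9 Polr3 genes. Each gene was read from the brightest of its probe sets, of which the members had 54 in all. All 25 lay above the array median on 43 of 43 arrays and entered the test, so none was lost to the filter on dim probe sets. Polr2k and Polr2l, whose probe sets carried several gene names, were not analysed here. The brightest probe sets of Polr1c, Polr1d, Polr1e, Polr2e and Polr3b are of types that can also bind related transcripts.

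RNA polymerase I makes the precursor of the large ribosomal RNAs in the nucleolus, RNA polymerase II makes messenger RNAs, and RNA polymerase III makes transfer RNAs and other short RNAs. Each enzyme has a catalytic pair of large subunits of its own, a set of subunits shared with the other polymerases, and further subunits of its own that serve initiation, elongation or RNA cleavage. T cells that receive IL-2 grow before they divide, and growth needs ribosomes and transfer RNAs.

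CTLL-2 comes from C57BL/6 mice and depends on IL-2, and every group had first spent 14 h without it. The IL-2 groups then received recombinant human IL-2 (100 U/mL) for 0.5, 1, 2, 6, 8, 10, 12, 16 or 24 h with 3 arrays each, or for 4 h with 4 arrays. Cells kept on without IL-2 gave 4 arrays at a further 4 h (no IL-2 4 h) and 3 at a further 8 h (no IL-2 8 h), and the starting point gave 5 arrays (starved 0 h). The cells are 1 transformed line in culture, so the groups are cultures and not animals; separate cultures are described for the IL-2 times and not for the other groups, where p-values may cover technical spread alone.

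Values are deposited array signals on a linear scale, scaled to 1 trimmed mean per array; the number of arrays limits their precision. The median signal ran from 96.3 to 118.6 on the 7 arrays of scan day 2 and from 46.1 to 76.5 on the other 36. All 7 arrays without IL-2 were scanned in another year than the other 36, so any comparison with them cannot be told apart from scan year. Replicate 2 of no IL-2 4 h stood apart: its mean correlation over the 32184 tested probe sets was 0.932 with the other 6 arrays without IL-2 and 0.94 with the 4 IL-2 4 h arrays, whereas the other 3 arrays of its group had 0.955 to 0.961 and 0.919 to 0.927. Members' calls that involve no IL-2 4 h are given with and without it, and values of genes other than the members only with it. T cell markers fitted the line: Ptprc, Thy1, Cd3d, Cd3e, Cd3g, Cd8a, Il2ra, Il2rb, Gzmb and Prf1 lay above the array median on all 43 arrays. The B cell markers Cd79a, Cd79b and Ms4a1 did so on 8, 4 and 2 arrays. Of the macrophage markers, Itgam did so on 1 array, whereas Cd14 and Csf1r did so on 42 and 40, at median signals of 254 and 182; their part in the results was not tested.

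Differences are of log2(signal + 16) between group means, with limma's standard error (SE), and a member counts as higher or lower where limma's p, adjusted over all 32184 tested probe sets by the Benjamini-Hochberg method, was under 0.05. The background given with each count is the share of all tested probe sets called in that direction; it includes many dim probe sets, whereas all members were bright. These are bulk samples, in which fewer cells of a kind and less RNA per cell cannot be told apart. The IL-2 times share the starved arrays, so their counts are not independent of each other.

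Of the 25 subunit genes, 10 were higher than in starved cells at 1 or more IL-2 times, 4 were lower and 11 were neither (40.0%, 16.0% and 44.0%). Of all tested probe sets 13% were higher at 1 or more of these times, 22.1% were lower and 65.3% were neither. The genes that rose were Polr1a, Polr1b, Polr2c, Polr2f, Polr2g, Polr3d, Polr3e, Polr3f, Polr3g and Polr3k, and those that fell were Polr1c, Polr2i, Polr3c and Polr3gl. Among the members, the 3 Polr1 genes of polymerase I alone had the highest median difference. At 4 h it was 1.89, against 0.44 for the 9 of polymerase III alone and -0.12 for the 8 of polymerase II alone. The median of all tested probe sets was -0.21. At 12 h these medians were 2.02, 0.82 and 0.20, beside -0.20. A further 3 subunits of polymerase I, which carry other symbols and are not members, had lower medians of 0.89 at 4 h and 0.58 at 12 h. The 2 subunits shared by polymerases I and III had medians of -0.16 at 4 h and -0.15 at 12 h, and the 3 shared by all polymerases had 0.36 and 0.31. These medians describe small sets and were not tested against each other.

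**Figure D1:**
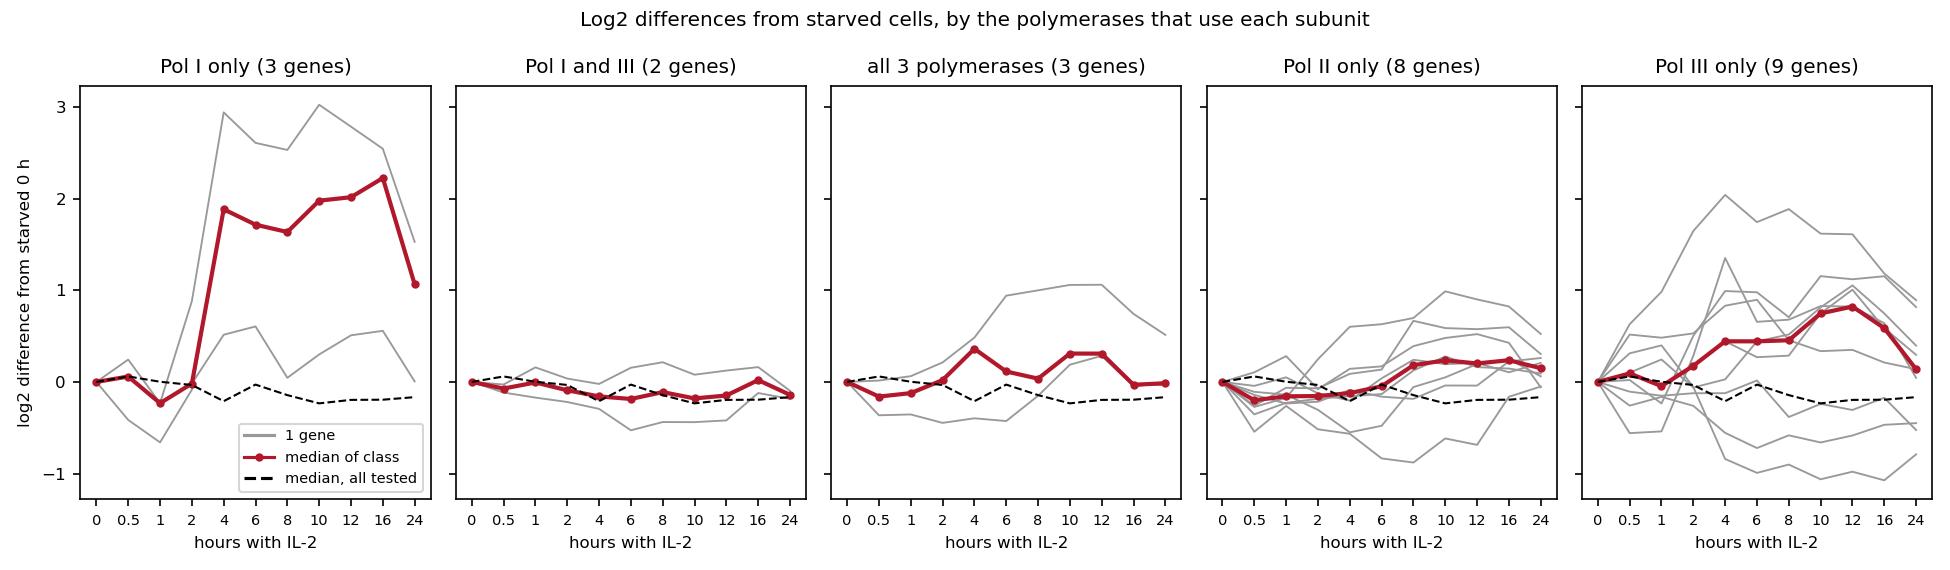
Log2 difference from starved 0 h (y axis) against hours with IL-2 (x axis, unevenly spaced times at even steps), 1 panel for each set of subunits by the polymerases that use them; grey lines are genes, red the set's median and dashed black the median of all tested probe sets. The median of the 3 Polr1 genes of polymerase I alone reached 1.89 at 4 h and 2.23 at 16 h, whereas that of the 8 genes of polymerase II alone stayed between -0.20 and 0.24. Subunits under other symbols are not drawn.

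No member was called at 0.5 h (background 0.112% higher and 0.0217% lower) or at 1 h (0.388% and 0.13%) by limma, where 1 and 2 members had an unadjusted p under 0.05. At 2 h Polr3d alone was higher (background 1.64%) and none was lower (1.17%). At 4 h 5 members were higher (20.0%, background 6.52%) and 3 lower (12.0%, background 8.56%). At 6 h the counts were 5 higher (background 6.76%) and 3 lower (10.1%), and at 8 h 6 higher (7.11%) and 2 lower (12%).

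With no block, the counts of higher members were greatest at 10 h and 12 h, with 10 of 25 (40.0%) at each, against backgrounds of 7.91% and 7.92%. Lower members numbered 2 at each (background 12.1% and 11.4%). Both times had 2 of their 3 arrays on scan day 6, which held no other group. The peak in the count therefore cannot be told apart from that day. At 16 h 8 were higher (background 6.82%) and 1 lower (8.57%). At 24 h only Polr1b was higher (3.44%) and none was lower (5.34%). Tested jointly for any change among starved 0 h and the 10 IL-2 times (limma's F test), limma called 12 of 25 members (48.0%), against 26.8% of all tested probe sets: 2 of 5 Polr1, 4 of 11 Polr2 and 6 of 9 Polr3 genes. The share of higher members lay above the background from 4 h to 16 h. The share of lower members lay slightly above it at 4 h and 6 h (12.0% at each) and below it from 8 h on. Of all tested genes with 1 probe set each, 11.2% were lower at 4 h and 13.3% at 6 h. Against that background the members' share of falls was near it at 4 h and below it at 6 h.

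The balance of rises and falls changed under median centring and changed little under quantile normalisation. With quantile normalisation 5 members were higher and 3 lower at 4 h, 7 and 4 at 6 h, and 8 and 1 at 8 h. The counts were 10 and 2 at both 10 h and 12 h, 9 and 1 at 16 h, and 3 and 0 at 24 h. Over all comparisons that scaling ended 1 call of a member, Polr3gl at 8 h, and added 8. Centring each array on its median moved the median difference of all tested probe sets at 4 h to 0.13, against -0.21 as deposited. At 6 h it moved that median only from -0.029 to -0.005, yet the 3 falls there also lost their calls. Polr3gl, for example, went from -0.99 to -0.97 (limma's adjusted p = 0.0845). The rise of Polr3k at 6 h lost its call too, at 1.00 against 0.98. Calls thus ended where values hardly moved, and the reason was not tested. The split with centring had 0 lower members throughout, with 10 higher at 4 h, 4 higher at 6 h, 4 higher at 8 h, 10 higher at 10 h, 9 higher at 12 h, 7 higher at 16 h and 1 higher at 24 h. Every fall of a subunit gene from starved cells kept its sign under centring and lost its call. With scan day as a fixed block 7 members were called at 10 h and 7 at 12 h, 5 of them higher at each time. At 16 h this block ended no call of a member and added Polr1e and Polr3e (higher) and Polr3c (lower). Over the comparisons it could be fitted to, this block ended 12 calls of members and gave 15 that were not made without it; a random block did so for 12 and 12. Some of these changes are given with the gene they concern. Where 1 scan day held both groups, all called differences kept their direction within it: 8 of 8 on day 1, 10 of 10 on day 2, 59 of 59 on day 3 and 17 of 17 on day 4. Only called values were read, and the same arrays had gone into the fit that gave the calls. The values of a day also share its starved arrays. This agreement is therefore largely built in and is no test of scan day.

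**Figure D2:**
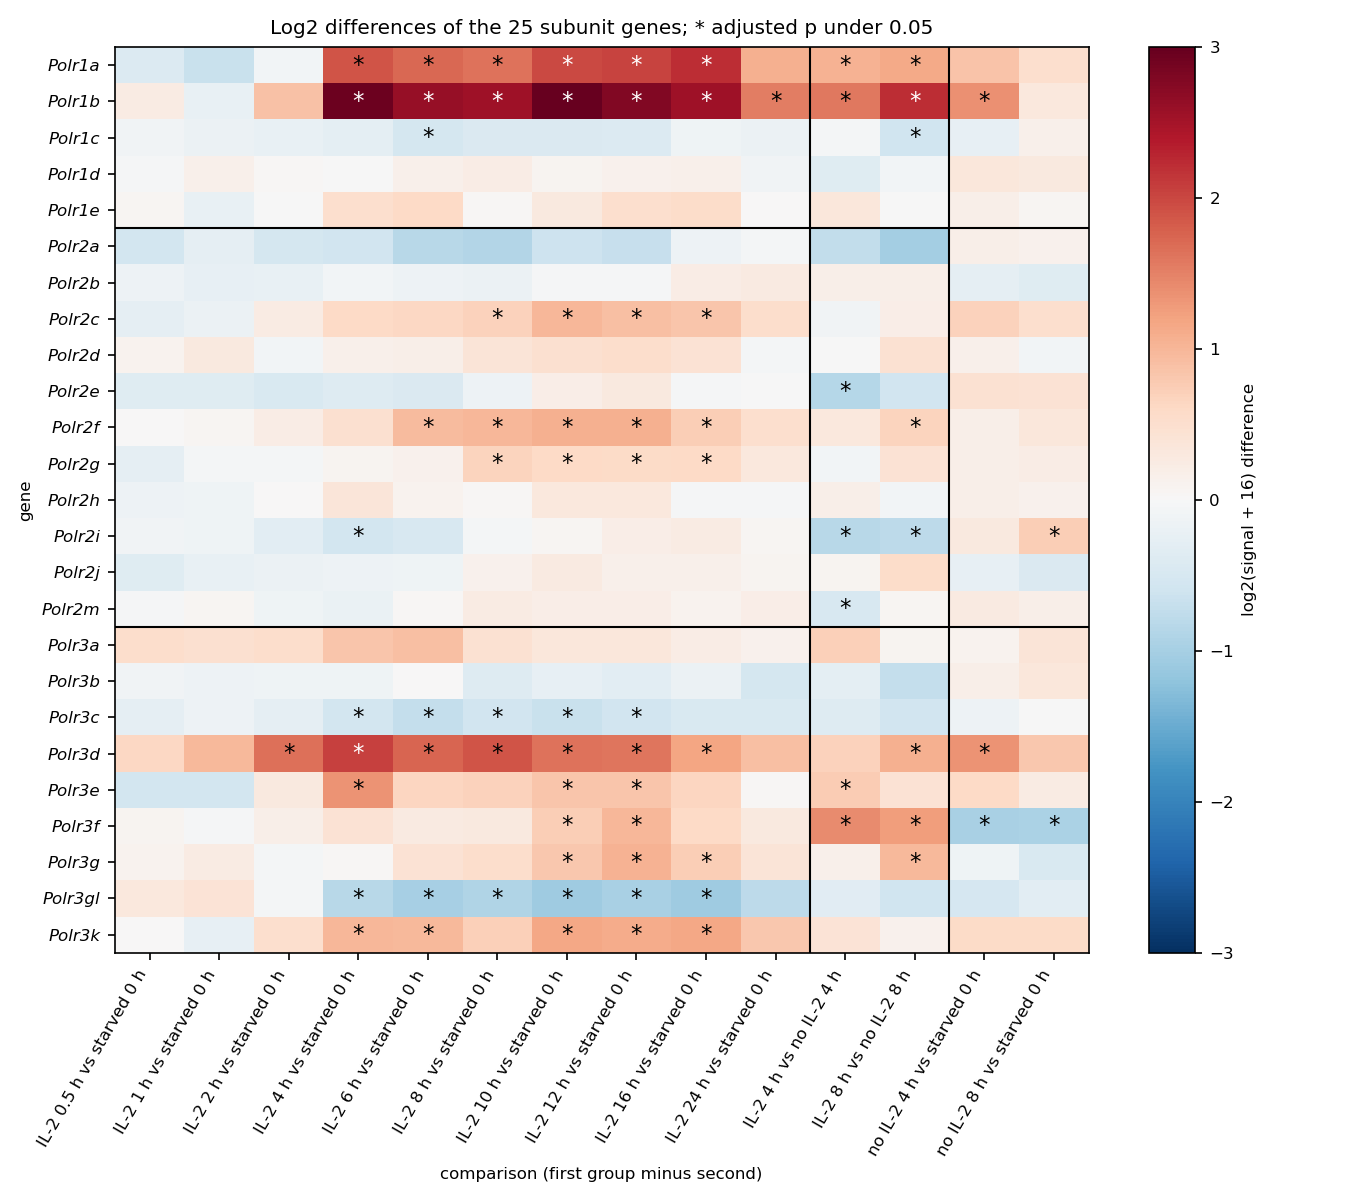
Log2(signal + 16) differences of the 25 genes (rows, Polr1 above Polr2 above Polr3) in the 14 comparisons (columns; the first group minus the second), with red for higher and blue for lower in the first group and an asterisk for an adjusted p under 0.05. Polr1a and Polr1b stand out from 4 h to 16 h, and Polr3gl and Polr3c run blue beside red Polr3 neighbours.

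The catalytic pair of polymerase I rose together. Polr1b, the second largest subunit, had signals of 1185, 1167, 1239.9 and 1153 in IL-2 4 h cells, against 129, 165, 132, 155 and 125 in starved cells. Its difference at 4 h was 2.94 ± 0.40 (SE, limma's adjusted p = 2.37e-06). All 4 IL-2 arrays lay above all 5 starved arrays, and the IL-2 arrays lay close together.

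Polr1a, the largest subunit, had signals of 1245, 958, 741 and 647 in IL-2 4 h cells, against 329, 195, 169, 228 and 226 in starved cells. The difference was 1.89 ± 0.34 (adjusted p = 0.000118), and again no arrays overlapped. Neither gene was called at 2 h, where Polr1a stood at 219.8, 199 and 212 and Polr1b at 321, 297 and 211; the difference of Polr1b at 2 h was 0.88 ± 0.44 (adjusted p = 0.388).

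From 4 h to 16 h the 6 differences from starved cells ran from 1.64 to 2.23 for Polr1a and from 2.53 to 3.03 for Polr1b. All 12 were called under all 12 alternative settings and without any single array. At 24 h the 3 IL-2 arrays no longer lay together: Polr1b had 1361, 187 and 312 and Polr1a 994, 388 and 295. The call for Polr1b at 24 h (1.53 ± 0.44, adjusted p = 0.0211) ended without IL-2 24 h replicate 1 (0.73), without scan day 2, which holds that replicate (0.78), and with only the arrays compared in the fit. Polr1a at 24 h (1.07) was not called as reported, but was with scan day as a fixed block (1.30, adjusted p = 0.00624) or a random block (1.11, adjusted p = 0.0247). Quantile normalisation, the 75th percentile filter and the mean of its probe sets also gave that call. Polr1a has 4 other tested probe sets. Those with mean signals of 259 and 205 differed by 1.76 each at 4 h and were called, and the dim ones, with 46.1 and 42.2, differed by -0.24 and -0.42 and were not.

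With all arrays and no block, none of the other 3 genes under the Polr1 prefix was called higher. Polr1e, which helps load the polymerase, averaged 388 ± 97.1 in IL-2 4 h cells and 265 ± 60 in starved cells (SD, n = 4 and 5), a difference of 0.52 ± 0.30 (adjusted p = 0.271). It was called under median centring at 4 h (0.86, adjusted p = 0.0418) and with scan day as a fixed block at 16 h (0.74, adjusted p = 0.048). Its other probe set was called at 4 h, at 1.08 (adjusted p = 0.00477), so the 2 probe sets disagree on the call and not on the direction. Polr1d, shared with polymerase III, differed by -0.02 ± 0.16 at 4 h, with a 95% interval of -0.34 to 0.30.

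Polr1c, its partner in both enzymes, was lower at 6 h, with 2261, 1831 and 1983 in IL-2 6 h cells, against 2902, 2547, 3290.2, 2999 and 2887 in starved cells. The difference of -0.53 ± 0.19 had an adjusted p of 0.0486, and the call ended without any 1 of 7 of the 8 arrays compared (differences -0.61 to -0.46). At the other times its differences from starved cells ran down to -0.44 and were not called, but with scan day as a fixed block it was also called lower at 10 h (-0.71, adjusted p = 0.0315) and 12 h (-0.69, adjusted p = 0.0362), and with the random block at 10 h (-0.55, adjusted p = 0.0487). The mean of its probe sets was called lower at 8, 10, 12 and 16 h too (at 8 h -0.48, adjusted p = 0.0109).

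Subunits of polymerase I that carry other symbols were read from a separate list of 3: Twistnb was higher at 4 h (0.89 ± 0.17), and at 12 h both Twistnb (0.58 ± 0.19) and Cd3eap (1.41 ± 0.44) were. Znrd1 differed by -0.30 ± 0.15 at 4 h. Not all calls in this list were rises. At 6 h 1 of the 3 genes was higher and 1 lower (background 6.76% and 10.1%). At 16 h none was higher and 1 was lower (6.82% and 8.57%). The median over all tested probe sets was -0.21 at 4 h and -0.20 at 12 h.

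The sequences before the starts of Polr1a and Polr1b are shown because the 2 genes moved together; each is the 250 bases upstream of the start in RefSeq's GRCm38.p6, read 5′ to 3′ on the gene's strand. Polr1a lies on the plus strand at chr6:71908803-71909052 and Polr1b on the plus strand at chr2:129100746-129100995. Capitals mark TTCNNNGAA, the spaced repeat bound by STAT5, a factor that IL-2 activates.
Polr1a: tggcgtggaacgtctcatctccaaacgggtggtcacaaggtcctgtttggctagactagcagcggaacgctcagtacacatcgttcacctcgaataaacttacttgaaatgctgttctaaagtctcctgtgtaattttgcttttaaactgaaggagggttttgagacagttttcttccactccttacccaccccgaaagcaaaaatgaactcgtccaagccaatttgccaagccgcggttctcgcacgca
Polr1b: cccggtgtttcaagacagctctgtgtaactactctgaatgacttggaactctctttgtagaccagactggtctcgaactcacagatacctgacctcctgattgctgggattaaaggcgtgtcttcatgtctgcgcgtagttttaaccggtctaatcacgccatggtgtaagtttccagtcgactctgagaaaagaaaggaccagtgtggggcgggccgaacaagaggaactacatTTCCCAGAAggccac
Both strands were searched for TTCNNNGAA and for CACGTG, the E-box bound by Myc and related factors, each of which reads the same on either strand. Polr1b holds 1 TTCNNNGAA, whose first base lies 15 bases before the start, and Polr1a holds neither motif. TTCNNNGAA occurs in 7.02% of 32851 such windows and in 2 of the 23 windows of the 21 members that have one, those of Polr1b and Polr2f. A match is a string of letters and shows no binding.

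With all arrays and no alternative setting, polymerase II's catalytic pair was not called. Polr2a, the largest subunit, averaged 469 ± 321 in IL-2 4 h cells and 677 ± 392 in starved cells (SD, n = 4 and 5), and the difference of -0.57 ± 0.31 was not called (adjusted p = 0.236). That value turns on 2 arrays of scan day 1, both bright for this gene. Without IL-2 4 h replicate 1 Polr2a was called lower than in starved cells (-0.96, adjusted p = 0.0268) and lower than without IL-2 (-1.14, adjusted p = 0.0122, against -0.75 with it). Without starved replicate 1 the difference from starved cells at 4 h was -0.28 and not called.

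At 8 h Polr2a differed from starved cells by -0.88 ± 0.34 (adjusted p = 0.0598), which was called without starved replicate 2 or 3 (-0.99 each) and was -0.60 without starved replicate 1. Its difference from no IL-2 8 h, -1.01 ± 0.37 (adjusted p = 0.052), was called with only the arrays compared (adjusted p = 0.00251) and without IL-2 8 h replicate 2 (-1.18). Polr2b, the second largest, differed by -0.09 ± 0.17 at 4 h (95% interval -0.43 to 0.25) and by -0.04 ± 0.18 at 12 h (-0.41 to 0.33).

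Polr2f, a small subunit shared by all polymerases, showed the largest rise under this prefix. Its signals were 5254, 4949 and 5157 in IL-2 12 h cells, against 1994, 2014, 2709, 2681 and 2994 in starved cells, with a difference of 1.06 ± 0.19 (adjusted p = 0.000102). The arrays did not overlap at 6, 8, 10 or 12 h, and with scan day as a fixed block it was also called at 4 h (0.48, adjusted p = 0.0218) and 24 h (0.64, adjusted p = 0.0278). At 16 h replicate 1, at 2581, fell back among the starved arrays. The rise rests on 1 probe set: the other, with a mean signal of 224, differed by -0.35 at 12 h, and a mean of both ended all 5 calls against starved cells.

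Polr2c and Polr2g, which belong to polymerase II alone, were higher from 8 h to 16 h. With scan day as a fixed block the calls of both at 10 h and 12 h ended, and Polr2c was called at 4 h (0.70, adjusted p = 0.00275) and 6 h (0.74, adjusted p = 0.00341), as with the random block (adjusted p = 0.0104 and 0.00999), so its first call depends on the block. Polr2g, part of the stalk through which nascent RNA leaves the enzyme, had 5042, 5899 and 4951 in IL-2 12 h cells, against 3505, 2532, 3468, 4227 and 4257 in starved cells. Its difference was 0.58 ± 0.17 (adjusted p = 0.0113), the arrays did not overlap, and the call ended under median centring, with only the arrays compared, with scan day as a fixed block, and without IL-2 12 h replicate 2 (0.50). Polr2c, an assembly subunit, had 4499, 4531 and 2666 in IL-2 12 h cells, against 1951, 1534, 2050.0, 3227 and 1704 in starved cells, where replicate 4 overlaps the IL-2 range. Its difference was 0.90 ± 0.25 (adjusted p = 0.00806), and the call ended without IL-2 12 h replicate 1 (0.78) or 2 (0.77) and with scan day as a fixed block (0.42).

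Polr2i, a subunit that helps choose start sites and proofread RNA, was lower at 4 h and was not called at the other IL-2 times, except at 6 h with scan day as a fixed block (-0.44, adjusted p = 0.0282), quantile normalisation or the 75th percentile filter. Its signals were 2847, 2334, 2753 and 2558 in IL-2 4 h cells, against 3629, 3896, 3752, 3988 and 3927 in starved cells, a difference of -0.55 ± 0.17 (adjusted p = 0.02). All IL-2 4 h arrays were the lower ones, although the call ended under median centring (-0.21) and without IL-2 4 h replicate 2 (-0.50). At 12 h it had 4259, 4903 and 4065, and IL-2 12 h against IL-2 4 h gave a difference of 0.75 ± 0.19 (adjusted p = 0.019; background 1.8% higher). That comparison was chosen after the values were seen; Polr2i and Polr3g were the members called in it, both higher, and none was lower (1.02%).

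With all arrays and no alternative setting, the remaining Polr2 genes, Polr2d, Polr2e, Polr2h, Polr2j and Polr2m, were not called at any IL-2 time against starved cells. Their differences ran from -0.40 for Polr2e to 0.36 for Polr2h at 4 h and from 0.16 for Polr2j to 0.52 for Polr2d at 12 h. Some alternatives called Polr2e lower at 4 h (-0.47 with the mean of its probe sets, adjusted p = 0.0268). Others called Polr2d higher at 12 h (0.63 without starved replicate 4) and Polr2h higher at 10 h (0.58 without IL-2 10 h replicate 3).

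Over the 10 IL-2 times the group means of Polr1a ran from 140.3 (1 h) to 1138 (16 h), against 229 in starved cells, and those of Polr1b from 119 (1 h) to 1322 (10 h), against 141 in starved cells. Those of Polr3d ran from 319.8 (0.5 h) to 880.3 (4 h), against 202 in starved cells, and those of Polr3e from 311 (0.5 h) to 1221 (4 h), against 481 in starved cells. All 4 genes had their highest mean at 4 h or later. Group means of Polr2a ran from 331 (8 h) to 618 (24 h), against 677 in starved cells, and those of Polr2b from 3418 (1 h) to 4929.8 (24 h), against 4092 in starved cells. Group means of Polr3a ran from 883 (16 h) to 1411 (6 h), against 787 in starved cells, and those of Polr3b from 259 (8 h) to 355 (6 h), against 350.2 in starved cells. These last 4, the catalytic subunits of polymerases II and III, were called at none of these times with all arrays and no alternative setting. Under some alternatives Polr2a, Polr3a at 4 h and 6 h, and Polr3b at 24 h were called.

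**Figure D3:**
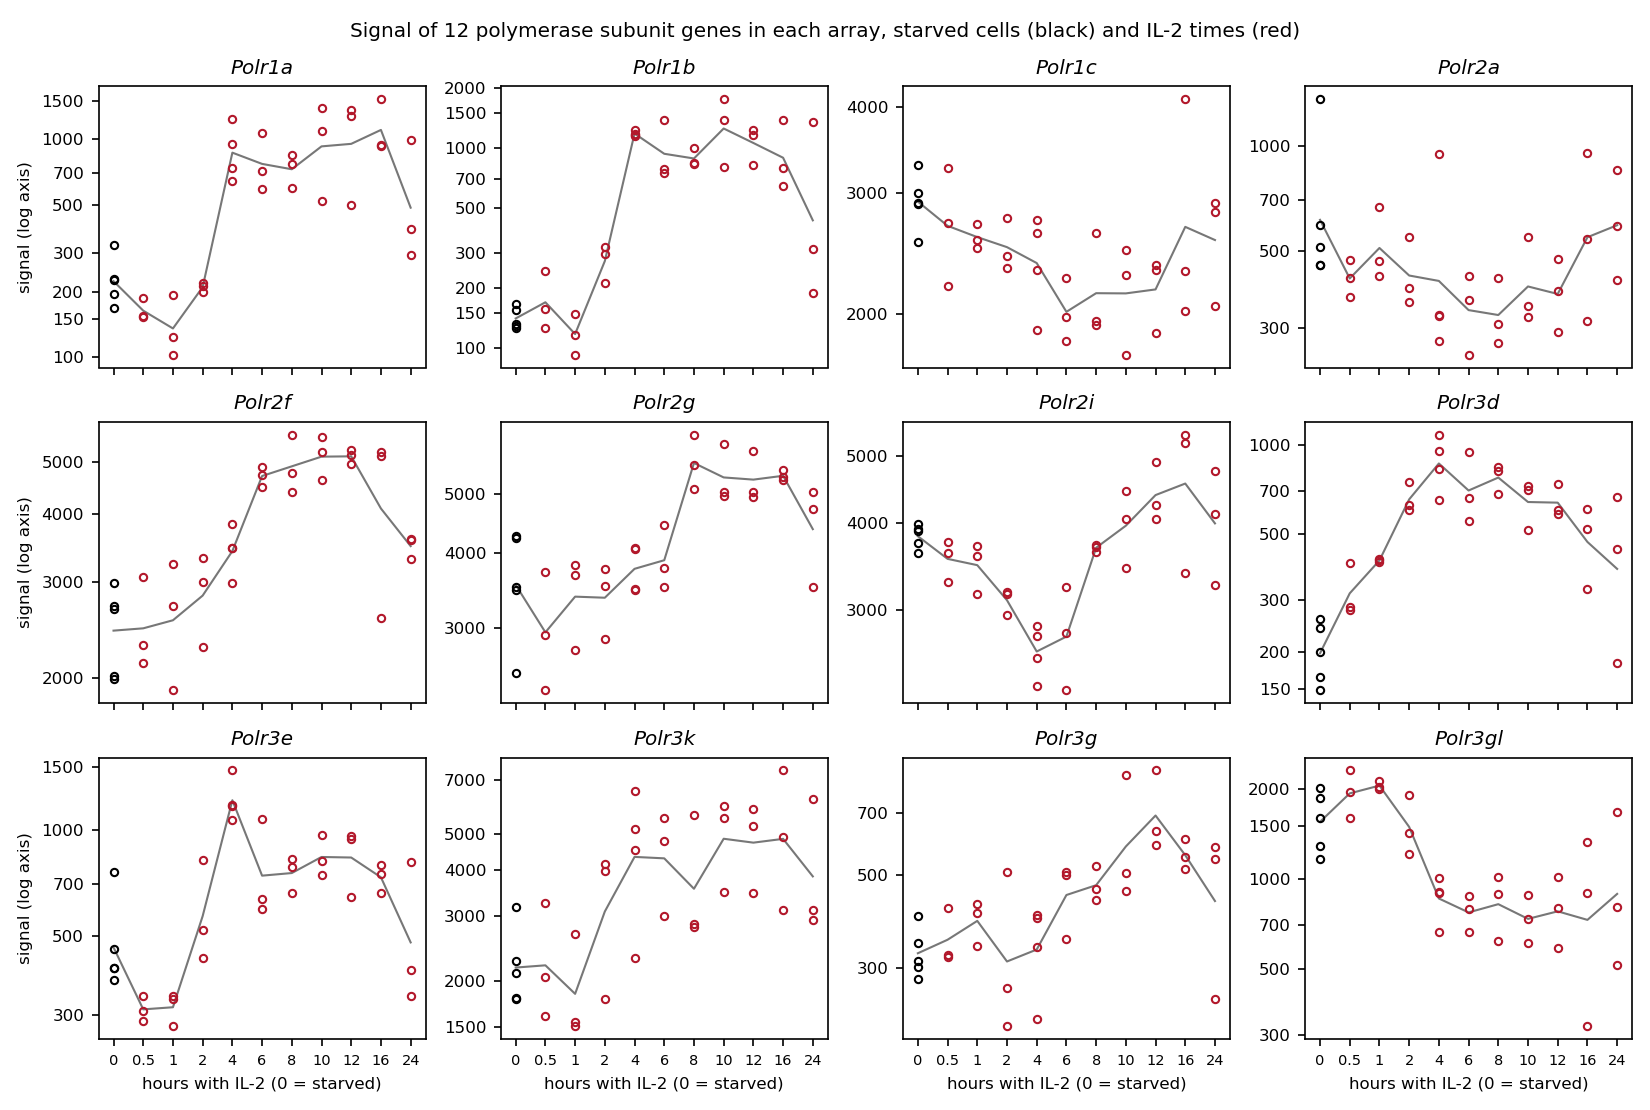
Signal (y axis, log scale) of 12 subunit genes in each array against hours with IL-2 (x axis, even steps), with starved arrays in black, IL-2 arrays in red and a grey line through the group means of the log2 values. Polr1a and Polr1b step up between 2 h and 4 h, Polr3d is above all starved arrays from 0.5 h to 16 h, Polr2i is lowest at 4 h, and the Polr3gl arrays lie lower and the Polr3g arrays higher at 12 h.

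Of the 9 members of polymerase III alone, 5 were higher at some IL-2 time, 2 were lower and 2 were neither (55.6%, 22.2% and 22.2%, beside 13%, 22.1% and 65.3% of all tested probe sets). With all arrays and no alternative setting the catalytic pair, Polr3a and Polr3b, was not called in any comparison. Polr3a averaged 1364 ± 392 in IL-2 4 h cells and 787 ± 293 in starved cells (SD, n = 4 and 5), a difference of 0.83 ± 0.33 (adjusted p = 0.087), and Polr3b differed by -0.12 ± 0.27 (adjusted p = 0.817). Polr3a at 4 h was called with scan day as a fixed block (0.68, adjusted p = 0.0236) or a random block (0.72, adjusted p = 0.0445), under median centring (1.18, adjusted p = 0.00516) and without scan day 2 (0.95, adjusted p = 0.0483). Of a second probe set of Polr3a the difference at 4 h was 0.62 (adjusted p = 0.0325), in the same direction. Polr3a was also called higher at 6 h under quantile normalisation (0.98, adjusted p = 0.049). With only the arrays compared it was called higher than no IL-2 4 h (0.72, adjusted p = 0.0404). Polr3b was called lower at 24 h with the mean of its probe sets (-0.94, adjusted p = 0.00979). It was also called lower than no IL-2 8 h with only the arrays compared (-0.72, adjusted p = 0.0247).

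Polr3d and Polr3e form a pair that takes part in initiation and termination, and both rose. Polr3d was the earliest member called: it had 747, 601 and 625.3 in IL-2 2 h cells, against 148, 258, 165, 199.7 and 240.2 in starved cells. The difference at 2 h was 1.65 ± 0.33 (adjusted p = 0.00195), with every IL-2 array above every starved one. Already at 0.5 h and 1 h, where no call was made, its arrays read 277, 399 and 284 and 409, 412 and 402, all above the starved range.

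At 4 h Polr3d had 1083, 956, 829.7 and 652, a difference of 2.04 ± 0.30 (adjusted p = 7.9e-06), and a second probe set gave 2.23 (adjusted p = 0.000118). Its calls from 2 h to 12 h held under all 12 settings and without any single array; that at 16 h (1.18 ± 0.33) ended without IL-2 16 h replicate 1 (1.00).

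Polr3e had 1472, 1169.5, 1175 and 1067 in IL-2 4 h cells, against 757, 405, 375, 407 and 461 in starved cells. All IL-2 arrays were above all starved arrays, of which replicate 1 was the highest. The difference of 1.35 ± 0.24 (adjusted p = 8.66e-05) was the largest of its time course; at 12 h it was 0.82 ± 0.26, and IL-2 12 h against IL-2 4 h was not called (-0.53 ± 0.27, adjusted p = 0.419). With scan day as a fixed block Polr3e was also called at 6 h (0.77, adjusted p = 0.0136), 8 h (0.79, adjusted p = 0.00996) and 16 h (0.75, adjusted p = 0.0159). The 4 h call ended when a second, dim probe set with a mean signal of 83.9 was averaged in (0.96).

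Polr3k, the subunit that cleaves RNA during proofreading and termination, had 5847, 5250.4 and 3460.2 in IL-2 12 h cells, against 1786, 2096, 3168, 2263 and 1790.0 in starved cells. The arrays did not overlap, and the difference was 1.12 ± 0.34 (adjusted p = 0.0141). The call ended without IL-2 12 h replicate 1 (0.97) or 2 (1.05) and with scan day as a fixed block (0.85). Polr3k was first called at 4 h (0.99). That call ended without starved replicate 1 (0.92) or 5 (0.92) and without IL-2 4 h replicate 1 (0.97), 2 (0.91) or 3 (0.80). The 6 h call of Polr3k (0.98) ended under median centring (1.00), with the replicate block (0.80), without scan day 2 (0.79) and without starved replicate 1, 2, 4 or 5. Its 3 other tested probe sets differed by 0.85 to 1.48 at 12 h, and 2 of those 3 were called.

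Polr3c, Polr3f and either Polr3g or Polr3gl make up a unit of 3 subunits that helps the enzyme open promoters. Polr3g and Polr3gl are related proteins that take the same place, and Polr3g is known mainly from stem cells and dividing cells. In these cells the 2 genes went opposite ways. Polr3gl had 585, 797 and 1011 in IL-2 12 h cells, against 1596, 2015, 1288, 1168 and 1858 in starved cells, a difference of -0.98 ± 0.32 (adjusted p = 0.0235). All 3 IL-2 arrays lay below all 5 starved ones.

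Polr3g had 887, 588 and 636 in IL-2 12 h cells, against 302, 311, 283, 343 and 398 in starved cells, a difference of 1.05 ± 0.26 (adjusted p = 0.00327), with no overlap. Polr3gl was called at an earlier time: at 4 h it had 899.7, 1007, 664 and 906 (-0.84 ± 0.29, adjusted p = 0.043), while Polr3g had 337, 396, 226 and 401 (0.03 ± 0.24, adjusted p = 0.956). Between IL-2 12 h and IL-2 4 h Polr3g differed by 1.03 ± 0.28 (adjusted p = 0.0277).

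Polr3gl was called lower at 6 of 10 times, from 4 h to 16 h, with differences of -1.07 to -0.84. All 6 calls ended under median centring, where the differences were -0.97 to -0.50, and the 4 h call ended without any 1 of 7 of the 9 arrays. At 12 h the call ended without replicate 2 of the starved arrays (-0.89) and without replicate 1 (-0.78) or replicate 2 of the IL-2 arrays. It also ended with scan day as a fixed block (-0.79, adjusted p = 0.208), as a random block (-0.90, adjusted p = 0.0534) and without scan day 2 (-0.89, adjusted p = 0.0534). The 10 h call of Polr3gl ended with the fixed block (-0.87, adjusted p = 0.158), and those at 4, 6 and 8 h without scan day 2. The 12 h rise of Polr3g was called without any single array and ended with the fixed block (0.74, adjusted p = 0.0897); its 10 h call ended with both blocks. With the fixed block, then, neither gene was called at 12 h, and both kept their signs.

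Polr3c, another part of that unit, was lower from 4 h to 12 h, with differences of -0.72 to -0.56. At 6 h, its largest, it had 1423, 1154 and 1351 in IL-2 6 h cells, against 2085, 1589, 2622, 2302 and 2359 in starved cells (-0.72 ± 0.21, adjusted p = 0.0122), without overlap. That call ended under median centring (-0.70) and without IL-2 6 h replicate 2 (-0.63); at 4, 8 and 12 h it ended without any 1 of 7 arrays. With scan day as a fixed block Polr3c was also called lower at 16 h (-0.62, adjusted p = 0.00457) and 24 h (-0.59, adjusted p = 0.0377).

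The sequences before Polr3c and Polr3gl are shown because both genes were lower and lie on chromosome 3 with 11 RefSeq genes between them. Polr3c lies on the minus strand at chr3:96727440-96727689 and Polr3gl on the minus strand at chr3:96594182-96594431 (GRCm38.p6), each read 5′ to 3′ on the gene's strand, with CACGTG in capitals.
Polr3c: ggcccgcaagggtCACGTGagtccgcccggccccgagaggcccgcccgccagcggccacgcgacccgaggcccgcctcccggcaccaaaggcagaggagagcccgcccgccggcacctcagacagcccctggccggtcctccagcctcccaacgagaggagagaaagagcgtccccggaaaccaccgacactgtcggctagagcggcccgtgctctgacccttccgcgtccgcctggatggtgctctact
Polr3gl: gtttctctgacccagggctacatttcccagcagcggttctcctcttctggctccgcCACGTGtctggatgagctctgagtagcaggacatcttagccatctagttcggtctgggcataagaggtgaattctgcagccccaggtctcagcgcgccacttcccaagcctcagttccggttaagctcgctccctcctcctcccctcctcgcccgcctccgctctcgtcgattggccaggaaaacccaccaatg
The motif begins 237 bases before the start in Polr3c and 194 bases before it in Polr3gl, and neither window holds TTCNNNGAA. CACGTG occurs in 6.02% of the 32851 windows and in 2 of the 23 member windows, these 2. No window was read for Polr2d, Polr2g, Polr3a or Polr3d.

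Polr3f completes that unit and is given in full because its values in cells without IL-2 stood apart, as seen after the analysis. It had 1493, 816 and 894 in IL-2 12 h cells, against 504, 576, 651, 447 and 384 in starved cells (1.01 ± 0.25, adjusted p = 0.00309), without overlap. The call ended without IL-2 12 h replicate 1 (0.74), the brightest array, and with scan day as a fixed block (0.73).

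Cells kept without IL-2 for the same time gave a second comparison. At 4 h, 4 members were higher in IL-2 cells than in no IL-2 cells (background 7.28%) and 3 lower (7.21%), and at 8 h 6 were higher (8.7%) and 2 lower (11.1%). With median centring the counts were 2 and 1 at 4 h and 2 and 0 at 8 h. None of the 25 members differed in effect between 8 h and 4 h after adjustment by limma (background 0.0311% higher and 0.0186% lower; 3 members had an unadjusted p under 0.05), so the 2 times are not shown to differ.

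Polr1b had 840.3, 1006 and 831 in IL-2 8 h cells, against 149, 167 and 230.3 in no IL-2 8 h cells, and the difference of 2.21 ± 0.49 (adjusted p = 0.000892) was called under all 11 settings and without any single array. At 4 h it had the IL-2 signals given above, against 226, 1504, 181 and 343 in no IL-2 4 h cells, where replicate 2 exceeded every IL-2 array. The difference was 1.58 ± 0.42 with that replicate (adjusted p = 0.00856) and 2.22 without it (adjusted p = 2.8e-05), and it missed the threshold without no IL-2 4 h replicate 3 (1.24).

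Polr1a had 768, 845 and 599.6 in IL-2 8 h cells, against 309, 379.9 and 287 in no IL-2 8 h cells (1.14 ± 0.41, adjusted p = 0.0457). The groups did not overlap, yet the call ended without any 1 of the 6 arrays (1.04 to 1.28). At 4 h the difference was 1.04 ± 0.36 (adjusted p = 0.0444) and 1.49 without no IL-2 4 h replicate 2 (adjusted p = 0.00147). That call ended without any 1 of 6 of the other 7 arrays.

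Polr3f had 525, 845, 710.3 and 725 in IL-2 4 h cells, against 341, 258, 203 and 208 in no IL-2 4 h cells, and 588, 642 and 627 in IL-2 8 h cells, against 208, 293 and 261 in no IL-2 8 h cells. The groups did not overlap at either time. The differences were 1.43 ± 0.24 (adjusted p = 1e-04) and 1.25 ± 0.28 (adjusted p = 0.00108), and both were called under all 11 settings and without any single array. Its highest value without IL-2, 340.7, lay below its lowest of 383.9 among the other 36 arrays, the only member so divided by scan year; IL-2 and scan year cannot be told apart here. Its other tested probe sets gave smaller values: against starved cells, no IL-2 4 h differed by -0.98 ± 0.23 on the brightest and by -0.34 to -0.18 on the 3 others.

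Polr2i was lower with IL-2 at both times. It had the IL-2 4 h signals given above, against 6285, 2627, 5573 and 5225 in no IL-2 4 h cells (-0.84 ± 0.18, adjusted p = 0.0011, and -1.11 without no IL-2 4 h replicate 2, the array that overlaps). At 8 h it had 3639.6, 3728 and 3705 in IL-2 8 h cells, against 6618, 6393 and 6172 in no IL-2 8 h cells (-0.79 ± 0.20, adjusted p = 0.00424), and the 2 groups did not overlap; that call ended under median centring (-0.83). It was also higher without IL-2 than in starved cells: no IL-2 8 h exceeded starved 0 h by 0.73 ± 0.18 (adjusted p = 0.0114), a call that ended without no IL-2 8 h replicate 1 (0.71) and under median centring and the random scan-day block.

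With all arrays in the fit, a further 3 falls and 4 rises complete the calls against no IL-2. Polr2e, shared by all polymerases, differed by -0.85 ± 0.23 at 4 h (adjusted p = 0.00971; -0.91 without no IL-2 4 h replicate 2). Polr2m, a protein that binds polymerase II and restrains it, differed by -0.48 ± 0.13 at 4 h (adjusted p = 0.00937; -0.52 without that array). Polr1c differed by -0.60 ± 0.21 at 8 h (adjusted p = 0.0395).

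The rises were Polr3e at 4 h (0.77 ± 0.25, adjusted p = 0.0331; 1.02 without no IL-2 4 h replicate 2) and, at 8 h, Polr2f (0.66 ± 0.22, adjusted p = 0.0258), Polr3d (1.07 ± 0.37, adjusted p = 0.0321) and Polr3g (0.97 ± 0.29, adjusted p = 0.0158). Of these, Polr3e's call ended without any 1 of 6 of 8 arrays, Polr2f's and Polr3d's without any 1 of 4 of their 6, Polr3g's without IL-2 8 h replicate 3 (0.89) or no IL-2 8 h replicate 3 (0.86), and Polr1c's without any 1 of 5 of 6. With scan day as a random block the calls of Polr3e at 4 h (0.75, adjusted p = 0.162) and of Polr1c (-0.68, adjusted p = 0.0846), Polr2f (0.60, adjusted p = 0.117) and Polr3g (0.78, adjusted p = 0.166) at 8 h ended. Averaging each gene's probe sets ended those of Polr1c, Polr2f, Polr3d and Polr3e.

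At 4 h Polr3d differed from no IL-2 cells by 0.70 ± 0.32 (adjusted p = 0.137) with all arrays, and was called higher without no IL-2 4 h replicate 2 (1.17, adjusted p = 0.00215). Polr3gl and Polr3c, lower than in starved cells, were not called against no IL-2 at either time with all arrays and no alternative setting. Polr3c at 8 h (-0.57 ± 0.23) was called with only the arrays compared (adjusted p = 0.00433), without scan day 2 (adjusted p = 0.0198) and under the 75th percentile filter (adjusted p = 0.0438). Polr3gl at 8 h was also called lower with only the arrays compared (-0.59, adjusted p = 0.0323).

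**Figure D4:**
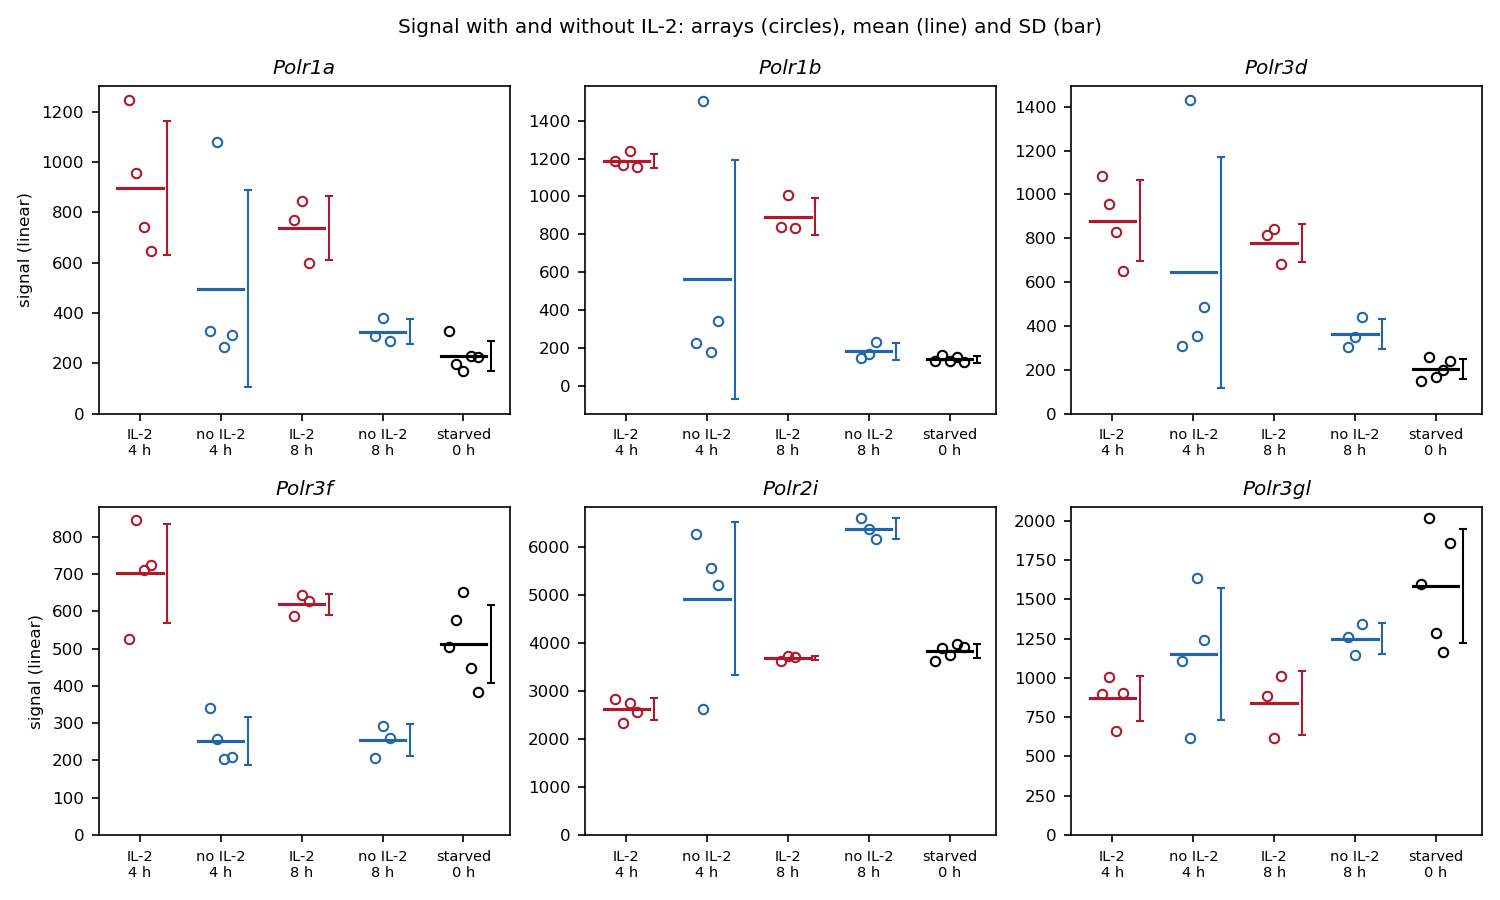
Signal (y axis, linear) of 6 subunit genes in IL-2 and no IL-2 cells at 4 h and 8 h and in starved cells (x axis); circles are arrays, lines are means and bars are SD. No IL-2 4 h replicate 2 lies among the IL-2 arrays for Polr1a and above them for Polr1b and Polr3d, while all 7 arrays without IL-2 are low for Polr3f.

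Without IL-2, few members moved from the starved level. At no IL-2 4 h 2 were higher (background 2.59%) and 1 lower (5.43%), and at no IL-2 8 h 1 was higher (2.26%) and 1 lower (3.2%); median centring gave 5 and 0 at 4 h and 0 and 0 at 8 h. Polr3d had 307, 1429, 352 and 486 in no IL-2 4 h cells, all above the starved arrays, a difference of 1.34 ± 0.30 (adjusted p = 0.00419) that missed the threshold without no IL-2 4 h replicate 2 (0.87, adjusted p = 0.053). Polr1b differed by 1.36 ± 0.40 with that array (adjusted p = 0.029) and by 0.72 without it (adjusted p = 0.258). With the random scan-day block neither Polr3d (1.20, adjusted p = 0.115) nor Polr1b (1.22, adjusted p = 0.235) was called. Polr2i at no IL-2 4 h exceeded starved cells by 0.29 ± 0.17 with all arrays (adjusted p = 0.304) and was called higher without no IL-2 4 h replicate 2 (0.56, adjusted p = 0.0175). Polr3f was lower at both times, with differences of -0.98 ± 0.23 at 4 h (adjusted p = 0.00605; 0.0168 without that array) and -0.96 ± 0.25 at 8 h (adjusted p = 0.0161). Both of these calls ended under median centring, with the random scan-day block and with the mean of its probe sets, and that at 8 h also without any 1 of 3 of the 8 arrays.

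Factors that work with the polymerases were read from lists, with the 2 called members of largest change at 4 h named from each. The background at 4 h was 6.52% higher and 8.56% lower. Of 7 initiation and termination factors of polymerase I, 2 were higher and 1 lower at 4 h. The higher ones were Taf1a, part of the promoter factor SL1, by 1.16 ± 0.28, and Rrn3, which brings polymerase I to its promoter, by 0.88 ± 0.27. The lower one was Ttf1 (-0.64). Against no IL-2 none of the 7 was called at 4 h (background 7.28% higher and 7.21% lower) or 8 h (8.7% and 11.1%), with medians of 0.01 and 0.13. Their median difference between no IL-2 4 h and starved cells was 0.34, with none called (background 2.59% and 5.43%). Of 15 initiation factors of polymerase III, 3 were higher and none lower, with the largest differences for Bdp1, part of TFIIIB (0.91 ± 0.24), and Snapc3, part of the snRNA promoter factor (0.56 ± 0.19). Crcp, a polymerase III subunit under another symbol, was lower (-0.72 ± 0.16).

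Maf1, which represses polymerase III, averaged 1260.3 in IL-2 4 h cells and 3772 in starved cells, a difference of -1.54 ± 0.28 (adjusted p = 0.000104). It was lower at every time from 4 h to 16 h, at -1.55 ± 0.30 at 12 h, and lower than without IL-2 at 4 h (-1.58 ± 0.29) and 8 h (-1.53 ± 0.33). At no IL-2 4 h it differed from starved cells by 0.04 ± 0.28 (adjusted p = 0.949).

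Of 17 measured general initiation factors of polymerase II, 3 were higher and 1 lower at 4 h, led by Cdk7, a kinase of TFIIH (0.98 ± 0.16), and Gtf2f2, part of TFIIF (0.98 ± 0.19). Of 19 elongation factors, near the background at 5.26% in each direction, 1 was higher, Ccnt1, part of P-TEFb (0.57 ± 0.18), and 1 lower, Nelfcd, part of the pausing factor NELF (-0.87 ± 0.21). Of 30 Mediator subunits 4 were higher and 1 lower, led by Med7 (0.93 ± 0.23) and the kinase Cdk8 (0.90 ± 0.21).

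Of 10 assembly and import factors, also near the background, 1 was higher, Ruvbl1 (1.26 ± 0.22), and 1 lower, Gpn3 (-0.61 ± 0.17). Of 6 genes of mitochondrial transcription 1 was higher, Tfb2m (0.54 ± 0.19). The shares called higher were 28.6% of the polymerase I factors, 20% of the polymerase III factors, 17.6% of polymerase II's initiation factors, 13.3% of Mediator and 16.7% of the mitochondrial genes, each of 4 genes or fewer. Medians at 4 h were 0.23 for the polymerase I factors, -0.01 for the polymerase III factors, 0.19, 0.11 and 0.04 for polymerase II's initiation factors, its elongation factors and Mediator, 0.30 for assembly and 0.25 for mitochondrial transcription, beside -0.21 for all tested probe sets. All 101 called values of listed genes, markers included, in the 4 comparisons at 4 h and 12 h against starved cells and at 4 h and 8 h against no IL-2 kept their sign under quantile normalisation. Some shrank: against no IL-2 4 h, Gzmb went from -0.58 to -0.02 and Thy1 from -0.56 to -0.08. Median centring moves all values of a comparison by 1 amount, smaller here than any called value, so it could turn no sign. Whether listed genes kept their calls under these settings was not tested.

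The authors' deposited table of probe sets that changed over the time course lists 15 probe sets of 9 members, and in each of the 9 the brightest probe set is among them. In the authors' deposited table Polr1b (FDR 1.07e-05), Polr1e, Polr3e and Polr3k fall in cluster 5, Polr1a, Polr2f and Polr3g in cluster 4, Polr3d in cluster 9 and Polr3gl in cluster 1. Of the 9 brightest probe sets in the authors' deposited table, 8 were called by the F test here and Polr1e was not; 4 members called by the F test, Polr2c, Polr2g, Polr2i and Polr3f, are not listed.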

How the data were processed

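The authors deposited signal intensities of 45101 probe sets on 43 Affymetrix Mouse Genome 430 2.0 arrays, computed in GCOS 1.3, per the submitters' processing notes. They are on a linear scale with 2% trimmed means of 500.003 to 500.004. Their table of changed probe sets holds p-values the authors adjusted to an FDR, per the file headers, and entered no test. Scan days came from the deposited scanner settings.

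The log2 values were computed here from the deposited signals as log2(signal + 16). limma 3.58.1 (R 4.3.3) fitted 1 mean per group to all 43 arrays (eBayes with a trend, two-sided, Benjamini-Hochberg adjustment over 32184 probe sets above the array median on at least 3 arrays, threshold 0.05). The 64 control probe sets were left out. No sample column was unmapped. The fit was tested on simulated data. Tables and figures used Python 3.11.15.

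Genes were assigned from the platform annotation, in which 34945 probe sets carried 1 symbol, 932 several and 9211 none; all 25 members matched RefSeq by gene ID. Given in full are the catalytic pairs, Polr3g and Polr3gl, the 3 called members with the largest differences per prefix at 4 h and at 12 h, and every member called lower with IL-2. Polr3f is described after its values were seen. Members and lists were chosen with earlier results of these data known.

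Alternatives were quantile normalisation, median centring, pseudocounts 1 and 64, no filter or one at the 75th percentile, only the arrays compared, replicate and scan-day blocks, averaging each gene's probe sets and leaving out each array; leaving out scan day 2 was added after seeing the data.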

Additional observations from a re-analysis of the deposited data

Results flagged for a closer look

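In 8 of 75 groups of 4 or 5 arrays, 1 array of a member lay far from the others by Dixon's test; chance marks about 1 group in 20. No IL-2 4 h replicate 2, the array that stood apart over all probe sets, accounts for 4 of these. It had 1081.2 for Polr1a, where the others had 263.6 to 329.3, and 5174.0 for Polr2c, where the others had 2794.9 to 2854.1. It also had 3832.7 for Polr2f, where the others had 2432.5 to 2483.6, and 1196.1 for Polr3e, where the others had 561.8 to 608.5. Each was above its group.

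Polr2a was high on both arrays of scan day 1. IL-2 4 h replicate 1 had 948.7, where the others had 274.2 to 326.1, and starved 0 h replicate 1 had 1370.9, where the others had 454.4 to 590.9. Starved 0 h replicate 1 also had 757.4 for Polr3e, where the others had 375.0 to 460.5. IL-2 4 h replicate 4 was low for Polr2e, at 1671.2, where the others had 2117.6 to 2185.6.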

How the results depend on the processing

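Of 79 called values of members, 22 were called under all alternatives run and without any array, 53 lost the call under at least 1 alternative and 44 without at least 1 array; none changed sign. Median centring ended 31 calls, 19 of the 20 lower ones among them. Counts of members called that moved by over 1.5 times were as follows, and the cause was not tested. Median centring gave 4 at 6 h and 4 at 8 h (8 each as reported), 3 against no IL-2 4 h (7), 2 against no IL-2 8 h (8), 5 for no IL-2 4 h (3) and 0 for no IL-2 8 h (2). Scan day as a fixed block gave 7 at 10 h and 7 at 12 h (12 each) and 4 at 24 h (1). As a random block it gave 3 at 24 h, 5 against no IL-2 8 h, 0 for no IL-2 4 h and 0 for no IL-2 8 h. Fitting only the arrays compared gave 4 at 16 h (9), 0 at 24 h, 16 against no IL-2 8 h and 1 for no IL-2 4 h. At 24 h quantile normalisation gave 3 and the 75th percentile filter 3, and averaging each gene's probe sets gave 4 there and 1 for no IL-2 8 h. Without scan day 2 the count was 5 at 6 h and 0 at 24 h.

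Leaving out 1 array gave counts of 4 to 8 at 4 h, 4 to 7 at 6 h, 5 to 7 at 8 h, 6 to 12 at 10 h, 6 to 12 at 12 h, 4 to 9 at 16 h and 0 to 4 at 24 h. Against no IL-2 it gave 4 to 8 at 4 h and 4 to 6 at 8 h, and it gave 2 to 4 for no IL-2 4 h, 0 to 2 for no IL-2 8 h and 11 to 14 by the F test. Arrays that moved a count by over 1.5 times were, at 4 h, starved replicate 1 (5) and IL-2 replicate 2 (4); at 6 h IL-2 replicates 1 (5) and 2 (4); at 8 h starved replicate 5 and IL-2 replicates 1 and 2 (5 each). At 10 h it was IL-2 replicate 1 (6), at 12 h replicates 1 and 2 (6 each), at 16 h replicate 1 (4), and at 24 h replicates 1 (0) and 3 (4). Against no IL-2 4 h it was that group's replicate 3 (4). Against no IL-2 8 h IL-2 replicates 1 (5) and 3 (4) and no IL-2 replicates 1 (5), 2 (4) and 3 (4) did so. For no IL-2 8 h they were starved replicate 3 (1) and no IL-2 replicates 1 (0) and 3 (1). Whether replicate numbers pair samples was not settled: of 45 pairs 12 had correlated deviations over 0.1, from -0.36 to 0.37. Groups are small and some pairs share a scan day, so these correlations cannot decide it. With the replicate number as a block, the count changed by over 1.5 times only at 24 h, to 2. That block ended 8 calls, among them Polr3gl and Polr3c at 4 h and 8 h, and gave 6 others, namely Polr2a at 6 h, at 8 h and against no IL-2 8 h, Polr2f and Polr3a at 4 h and Polr1a at 24 h. The number of arrays limits the smaller differences.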
